A study of Homo sapiens with 6 samples.

Results

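Amino acids cross the plasma and lysosomal membranes through carriers of the solute carrier (SLC) families, and 59 genes of 7 of these families (SLC1, SLC3, SLC6, SLC7, SLC36, SLC38 and SLC43) are described here in A549 cells. The genes were chosen by name, as the protein-coding genes whose symbol places them in 1 of those families, out of 58735 genes in the deposited tables. A549 is a human lung adenocarcinoma line, grown here in RPMI 1640 with 10% serum. All 6 libraries came from A549 cells that had been stably given a lentivirus, with 2 libraries in each of 3 groups. The WT group received HOXB9, a homeobox transcription factor, from the PLVX vector. The T133A group received HOXB9 with the T133A change in the same vector, and the KO group is labelled PLVX-HOXB9 KO. The labels do not say how the knockout was made, whether a group is 1 clone, or whether the endogenous HOXB9 gene was left intact in WT and T133A, and no group with an empty vector or without virus was analysed here. Nothing in them states that both libraries of a group are from different cultures. P-values therefore measure only how far these libraries spread, which may be technical.

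Amino acid carriers differ in what they move and in what drives them. Heteromeric carriers pair a heavy chain, such as SLC3A2 (4F2hc, CD98), with a light chain of the SLC7 family that does the transport. LAT1 (SLC7A5) exchanges large neutral amino acids such as leucine, and xCT (SLC7A11) brings in cystine, the source of cysteine for glutathione, in exchange for glutamate. Sodium-coupled carriers of the SLC1, SLC6 and SLC38 families concentrate glutamine, glutamate, alanine and other amino acids inside the cell, and LAT1 can then trade glutamine for leucine. Many tumour cells carry high levels of LAT1, 4F2hc, the glutamine carrier ASCT2 (SLC1A5) and xCT.

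In these libraries SLC7A5 and SLC3A2 rose together in KO, while SLC38A2, the most abundant of the SLC38 carriers, fell. Arginine carriers parted in KO, where SLC7A2 and SLC7A7 fell and SLC7A1 rose 1.58-fold. In T133A the levels of SLC7A5 and SLC3A2 lay close to those of WT, and the largest rise of a carrier was that of SLC6A14. SLC6A14 and SLC6A20 had 0 or 1 count per library in KO.

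The stretches of 250 bases before the transcription start are shown for 3 genes on which these results turn, the most abundant carrier (SLC7A5) and the SLC6 carriers that were nearly absent in KO (SLC6A14 and SLC6A20). They come from RefSeq (GRCh38.p14), are written 5′ to 3′ on the strand of the gene, and have capitals only where a searched motif was found, here the E-box CACGTG of SLC7A5.
SLC7A5, chr16:87869508-87869757, minus strand: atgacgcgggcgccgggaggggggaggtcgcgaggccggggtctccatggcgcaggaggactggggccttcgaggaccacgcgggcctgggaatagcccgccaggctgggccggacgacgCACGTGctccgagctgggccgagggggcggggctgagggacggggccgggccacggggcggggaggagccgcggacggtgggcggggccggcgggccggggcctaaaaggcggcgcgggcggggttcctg
SLC6A14, chrX:116436356-116436605, plus strand: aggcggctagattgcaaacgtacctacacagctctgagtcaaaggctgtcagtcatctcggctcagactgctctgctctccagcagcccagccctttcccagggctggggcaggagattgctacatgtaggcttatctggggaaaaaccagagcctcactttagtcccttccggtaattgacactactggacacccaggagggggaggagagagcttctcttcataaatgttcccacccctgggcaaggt
SLC6A20, chr3:45796537-45796786, minus strand: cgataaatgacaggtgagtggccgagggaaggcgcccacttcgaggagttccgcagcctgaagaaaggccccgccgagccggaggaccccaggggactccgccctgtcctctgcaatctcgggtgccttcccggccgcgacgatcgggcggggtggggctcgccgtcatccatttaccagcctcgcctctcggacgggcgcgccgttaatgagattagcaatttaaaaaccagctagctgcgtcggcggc

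The window of SLC7A5 is 79.6% G and C with 34 CpG pairs, that of SLC6A20 is 64.8% with 27, and that of SLC6A14 is 54.8% with 4. Over 27305 RefSeq promoters the median was 58% with 11 CpG pairs, and over the 44 carriers found in the table it was 64% with 13. The SLC7A5 and SLC6A20 windows are thus richer in CpG than the median carrier, and the SLC6A14 window is poorer.

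4 motifs were searched on both strands of these windows, and a match is a description of the letters, not evidence of binding. The composite TGATGNAA, known as a site of ATF4 with C/EBP factors, was in 3.19% of all promoters and in 1 of the 27 tested carriers found in the table. That carrier was SLC1A3, where TGATGCAA lies from base -220 to base -213. Positions count from the RefSeq start. For SLC1A3 the window (chr5:36596338-36596587) lies well upstream of the deposited gene start at 36606355, and the bases after the RefSeq start were not found in a GENCODE 29 transcript of the gene. For the printed windows of SLC7A5, SLC6A14 and SLC6A20 the bases after the RefSeq start were not found in such a transcript either. Unlike that of SLC1A3, these windows end close to the deposited gene start. The 2 positions were 87869508 and 87869488 for SLC7A5, 116436605 and 116436622 for SLC6A14, and 45796537 and 45796535 for SLC6A20. The windows of SLC3A2 and SLC7A7 lie inside the deposited genes. The core TGACNNNGC of the antioxidant response element was in 11% of all promoters and in 4 of the 27, SLC3A2 (TGACTCAGC, base -37 to base -29), SLC7A1, SLC7A6 and SLC7A7. The E-box CACGTG, a site of MYC and related factors, was in 6.49% of all promoters and in 3 of the 27, SLC7A5 (base -130 to base -125), SLC6A16 and SLC43A1. The sequence TGATTTAT, a site of HOX proteins with PBX, was in 0.78% of all promoters and in 0 of the 27. None of the motifs overlapped another in these windows.

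The files give a read count per gene. Levels below are CPM (counts put on a common depth with TMM factors) when a gene is compared with itself, and RPKM (CPM per 1000 bases of gene length) when genes are compared with each other. Values in sentences run in the order WT, T133A, KO, with the 2 libraries of each group, and means are given ± SD with n = 2. The test was edgeR's quasi-likelihood test, fitted to all 6 libraries together. A gene is said to rise, fall or change when its p, adjusted by the Benjamini-Hochberg method over all 16340 genes tested, was under 0.05. In RNA from whole cultures, fewer cells of a type and less RNA per cell cannot be told apart.

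Libraries held 16299059 to 18745432 counts. HOXB9 itself had 3807 and 3889 counts in WT and 4777 and 3577 in T133A, against 239 and 286 in KO. Its log2 fold change was -3.88 in KO (SE 0.135, edgeR adjusted p = 3.27e-16) and 0.14 in T133A (SE 0.113, adjusted p = 0.495), so the libraries labelled KO held the least HOXB9 RNA. All 6 epithelial markers looked at (keratins, EPCAM and CDH1) had counts in every library, with a summed level of 7899 to 10085 CPM, and in KO 2 of them fell and 1 rose. EPCAM fell from 15.7 ± 1.74 CPM in WT to 1.83 ± 0.156, CDH1 from 132 ± 6.29 to 71.7 ± 10.2, and KRT7 rose from 879 ± 12.7 to 1782 ± 203. Markers of alveolar cells, among them NKX2-1 and the surfactant genes, summed to only 0.969 to 2.45 CPM, with 2 to 4 of 6 at 0. Markers of blood cells summed to 5.34 to 13.2 CPM with 2 to 5 of 6 at 0, and those of endothelial cells to 0.304 to 2.35 CPM with 1 or 2 of 5 at 0.

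The KO libraries also differed from the others in fibroblast and endothelial markers and in mitochondrial RNA. Endothelial markers summed to 1.75 and 0.836 CPM in WT, 2.18 and 2.35 in T133A and, in KO, 0.304 and 0.323. PECAM1, the only 1 tested, fell in KO (log2 fold change -4.45). Fibroblast markers summed to 41.9 and 42.4 CPM in WT, 40.4 and 42.3 in T133A and, in KO, 9.71 and 10.7. LUM (21.3 ± 0.506 CPM in WT, 0.229 ± 0.0195 in KO) and COL3A1 (13.4 ± 0.0794 and 0.0573 ± 0.00487) fell in KO, as did DCN, which had 0 counts there, while COL1A1 rose from 6.39 ± 0.0513 to 9.47 ± 0.607 CPM. Of the 7 fibroblast markers, 0 to 2 were at 0 in a library. Genes encoded by mitochondrial DNA took 7.87% and 7.84% of counts in WT and 8.91% and 8.51% in T133A, against 5.60% and 4.45% in KO. Their part in the results on carriers was not tested.

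Of the 59 carriers, 32 had enough counts to be tested. The other 27 held at most 11 counts in a library and 41 over all libraries. SLC6A2, SLC6A5, SLC6A18, SLC6A19, SLC1A6, SLC7A13, SLC36A2 and SLC36A3 had 0 counts in every library, which allows up to 3 counts in each, or 0.161 to 0.182 CPM. SLC3A1, the heavy chain of the renal cystine carrier, had 4 and 1 counts in WT, 0 and 0 in T133A and, in KO, 1 and 0. The kidney and gut neutral amino acid carriers SLC6A18 and SLC6A19 and the monoamine carriers of neurons (SLC6A2, SLC6A3, SLC6A4) were thus at or near 0 in these cells. Untested genes also included SLC1A7, SLC6A7, SLC6A11, SLC6A12, SLC6A13, SLC7A3, SLC7A4, SLC7A8, SLC7A10, SLC7A14, SLC38A3, SLC38A4, SLC38A5, SLC38A8 and SLC43A3, with 1 to 41 counts over the 6 libraries. SLC6A11, a GABA carrier, had 0 and 1 counts in WT and 3 and 3 in T133A, against 8 and 11 in KO, too few to be tested.

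Per unit of length, the carriers were ranked by their mean over the 6 libraries, and the order differed between groups. SLC7A5 had a mean of 279 RPKM over the 6 libraries, followed by SLC3A2 at 100.4, SLC38A2 at 70.4, SLC1A5 at 68.7, SLC7A11 at 33.5 and SLC38A1 at 27.1. In WT SLC38A2 (86.4 RPKM) lay above SLC3A2 (79.1), and in KO SLC38A2 (46.1) lay below SLC1A5 (85.7). In T133A SLC6A6 (30.3) lay above SLC38A1 (25.5). The 6 highest genes, ranked anew in each library, held 77.6% to 79.9% of the summed RPKM of the family in WT and T133A. In KO they held 88.0% and 87.7%. All carriers together took 0.373% and 0.365% of counts in WT, 0.348% and 0.361% in T133A and, in KO, 0.486% and 0.487%. Both KO libraries lay above the other 4, and T133A lay just below WT. All carriers together had 62307 and 64119 counts in WT and 79140 and 91293 in KO. Of these, SLC7A5 had 14994 and 15978 in WT and 34512 and 40997 in KO. SLC3A2 had 6905 and 7445 in WT and 11873 and 13821 in KO. The higher pooled share in KO thus rested on SLC7A5 and SLC3A2 and is not a rise of the carriers as a whole.

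**Figure D1:**
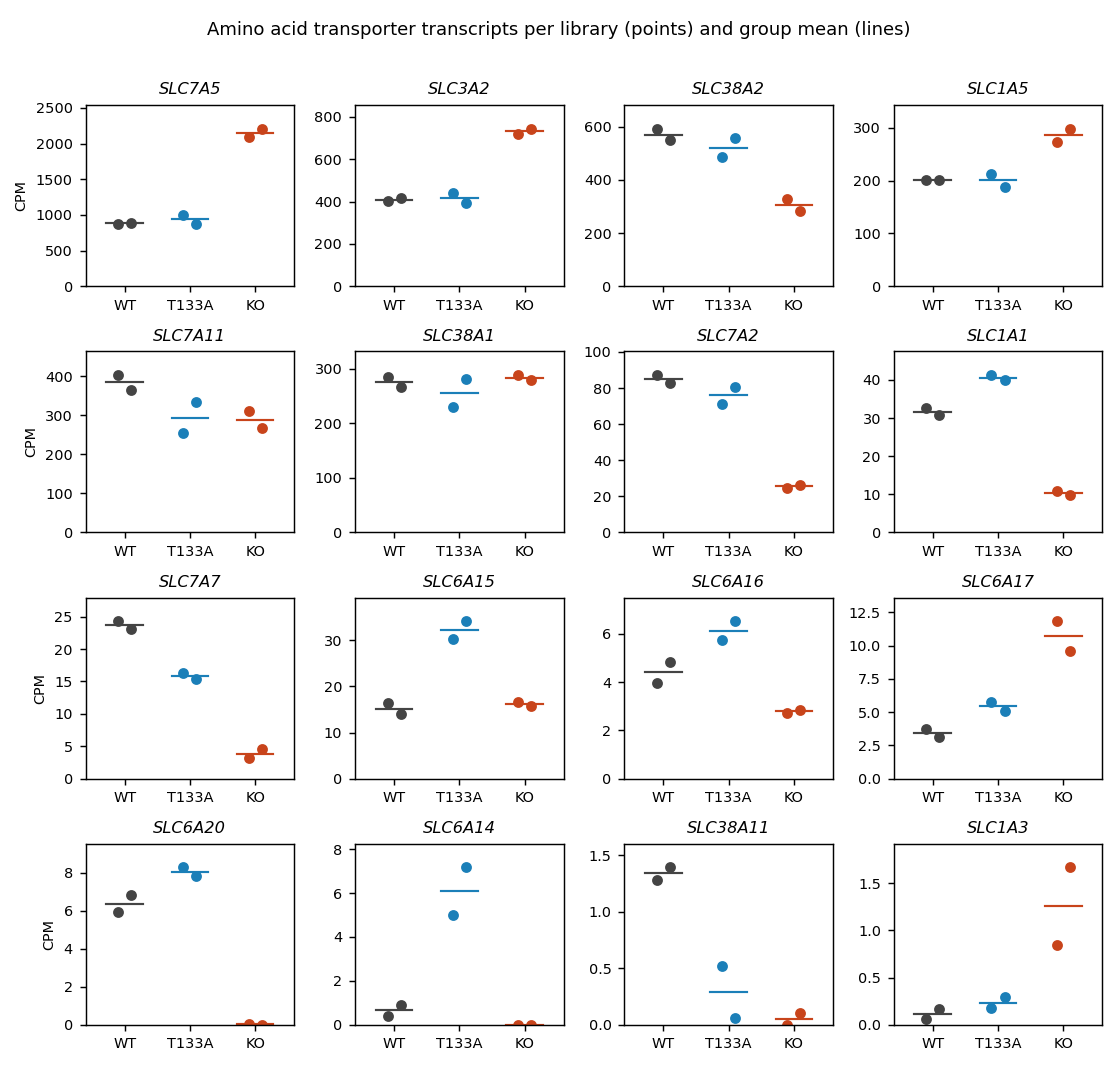
Levels of 16 carriers in each library, with CPM on the vertical axis from 0, points for libraries and lines for the mean of the 2 libraries of WT (grey), T133A (blue) and KO (orange). SLC7A5 and SLC3A2 are highest in KO, at 2095 and 2206 and at 721 and 744 CPM, and SLC6A14 is highest in T133A.

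In KO against WT, 9 of the 32 tested carriers rose and 11 fell, 28.1% and 34.4% of them. Over all 16340 genes, 23.6% rose and 23% fell, 46.6% in all, against 62.5% of the carriers. The median log2 fold change was -0.07 over the tested carriers and 0.00 over all genes, and the median size without sign was 0.46 against 0.43. Both the rises and the falls were fewer in some fits with a single library left out.

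In T133A against WT, 5 of the 32 rose and 3 fell, 15.6% and 9.38%. Over all genes 5.58% rose and 3.97% fell, 9.55% in all, against 25% of the carriers. The median log2 fold change was 0.12 over the carriers and 0.00 over all genes. The 3 falls were lost when either WT library was left out, which left 0 carriers that fell.

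In T133A against KO, 12 of the 32 were higher and 5 lower in T133A, 37.5% and 15.6%. Over all genes 20.3% were higher and 19.6% lower, 39.9% in all, against 53.1% of the carriers. The median log2 fold change was 0.22 over the carriers and -0.01 over all genes. The comparisons share libraries, so they are given side by side and not as support for each other.

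**Figure D2:**
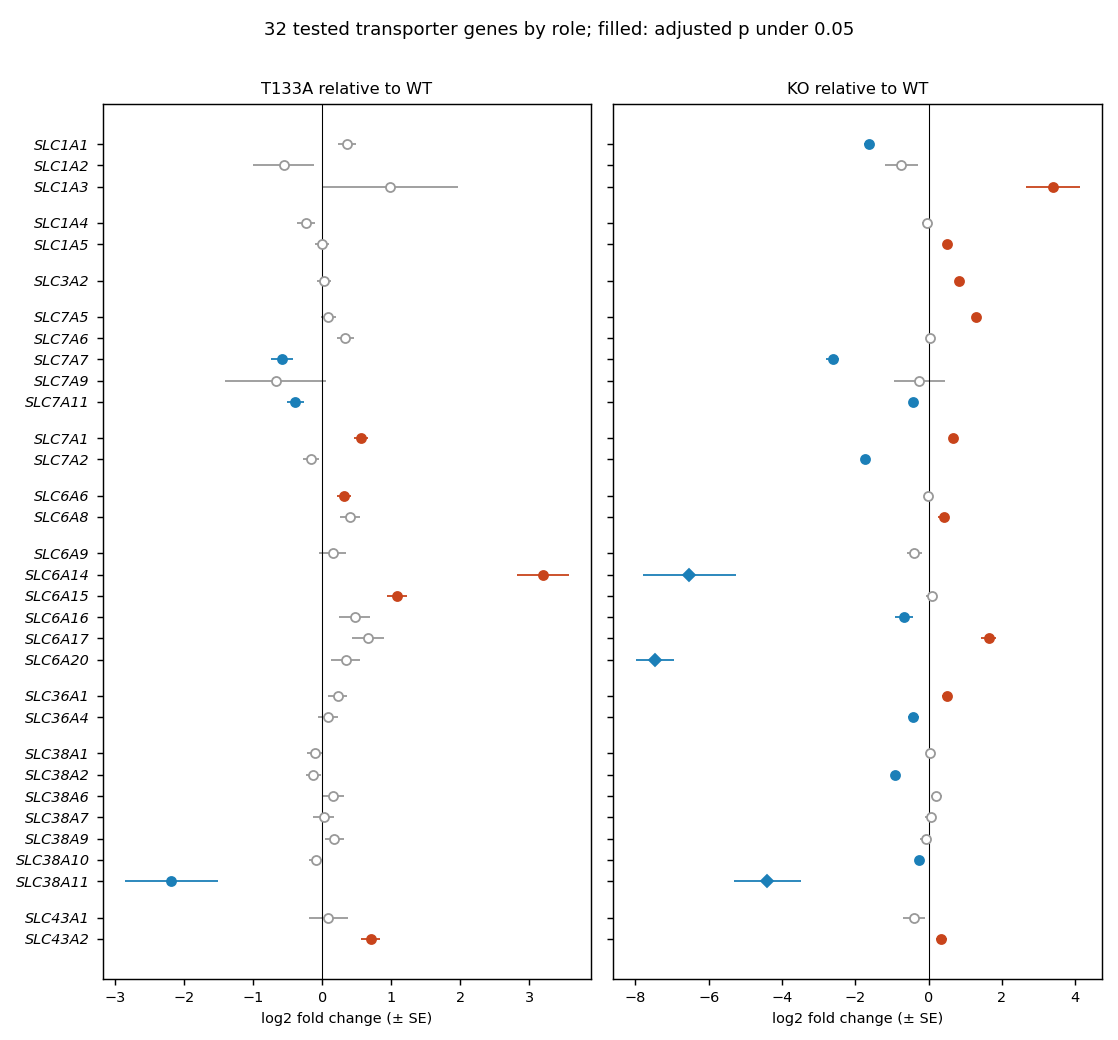
Log2 fold changes ± SE of the 32 tested carriers, grouped by role, in T133A (left) and KO (right) relative to WT, on axes of different range. Filled points passed the test (orange higher, blue lower), and diamonds mark SLC6A14, SLC6A20 and SLC38A11 in KO, whose fitted values rest on 0 to 2 counts and are no bounds.

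The heavy chain and its main light chain rose together in KO. SLC7A5 (LAT1; ENSG00000103257, chr16:87830023-87869488, minus strand, GRCh38) stood at 876 and 891 CPM in WT and 1006 and 874 in T133A, against 2095 and 2206 in KO. Both KO libraries lay above all others, and the T133A libraries overlapped WT. The KO mean of 2151 ± 78.8 CPM was 2.43-fold that of WT at 884 ± 10.3 (log2 fold change 1.28, SE 0.108, edgeR adjusted p = 1.89e-09). In T133A the log2 fold change was 0.09 (SE 0.107, adjusted p = 0.682).

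SLC3A2 (ENSG00000168003, chr11:62856102-62888875, plus strand) stood at 404 and 415 CPM in WT, 440.1 and 395 in T133A and, in KO, 721 and 744. Again the KO libraries were the highest, and T133A spanned the WT values. SLC3A2 rose 1.79-fold in KO (adjusted p = 5.39e-07, log2 fold change 0.84, SE 0.101) and had a log2 fold change of 0.03 in T133A (SE 0.101, adjusted p = 0.906). Against KO, T133A had 2.29-fold less SLC7A5 and 1.75-fold less SLC3A2 (adjusted p = 6.82e-09 and 1.08e-06).

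The cystine carrier did not follow the heavy chain. SLC7A11 (xCT; ENSG00000151012, chr4:138164097-138242349, minus strand) stood at 404 and 366 CPM in WT and 255 and 333 in T133A, against 311 and 268 in KO. Both WT libraries were above all others, and T133A and KO overlapped. It fell by 0.39 on the log2 scale in T133A (SE 0.119, adjusted p = 0.04) and by 0.41 in KO (SE 0.119, adjusted p = 0.00674). Both calls were lost after a correction for GC content and length, with log2 fold changes of -0.18 and -0.06. The T133A call was also lost without WT replicate 1, WT replicate 2 or T133A replicate 1, and the KO call without WT replicate 1 or KO replicate 2. Without T133A replicate 2 the T133A value was -0.59. GC content correlated with the log2 fold change across all genes at a Spearman rho of 0.17 in T133A and 0.26 in KO, a description over genes of the same libraries, and at 0.50 with the difference between the 2 T133A libraries. SLC7A11 is 35.4% G and C, against 61.1% for SLC7A5.

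SLC7A7 (y+LAT1), the light chain that exchanges cationic for neutral amino acids at the basal side of epithelia, lay at 24.3 and 23.1 CPM in WT, 16.3 and 15.4 in T133A and, in KO, 3.16 and 4.52. The 3 groups did not overlap. It fell 6.13-fold in KO (adjusted p = 6.3e-11, log2 fold change -2.62, SE 0.18) and 1.5-fold in T133A (log2 fold change -0.58, SE 0.155, adjusted p = 0.0176). The T133A call was lost without WT replicate 1 or WT replicate 2, with log2 fold changes of -0.55 and -0.63. The related light chain SLC7A6 (y+LAT2) passed no test, at 27.2 to 35.7 CPM. SLC7A9, the light chain of SLC3A1, had 3 to 11 counts per library and passed no test either.

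The make-up of the light chain pool shifted in KO. SLC7A5 made up 78.5% and 80.1% of the summed light chain RPKM in WT and 86.0% and 81.3% in T133A, against 92.3% and 93.4% in KO. The share of SLC7A11 was 17.8% and 16.2% in WT, 10.7% and 15.2% in T133A and, in KO, 6.73% and 5.57%. The KO libraries had the highest share of SLC7A5 and the lowest of SLC7A11, and no test was run on these shares. The RPKM behind them were not corrected for GC content, and a higher level of SLC7A5 by itself lowers the share of SLC7A11. The RPKM of SLC7A5 was 2.37 and 2.34 times that of SLC3A2 in WT and 2.49 and 2.41 times in T133A, against 3.17 and 3.24 times in KO. SLC7A5 alone held 30.6% to 33.8% of the RPKM of all carriers in WT and T133A and 50.2% and 51.2% in KO.

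**Figure D3:**
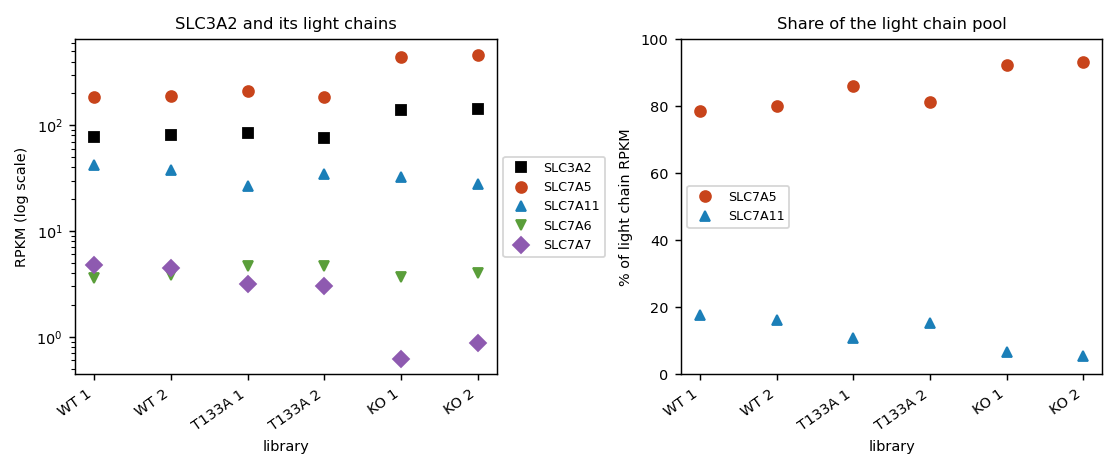
Left, RPKM (log scale) of the heavy chain SLC3A2 and 4 light chains in each library. Right, the share of the summed light chain RPKM (in percent) held by SLC7A5 and SLC7A11, which reaches 92.3% and 93.4% for SLC7A5 in the KO libraries.

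Of the cationic carriers that need no heavy chain, the 2 that were tested parted in KO. SLC7A1 (CAT1), the widely expressed arginine and lysine carrier, had 93.2 and 94.3 CPM in WT, 142 and 135 in T133A and, in KO, 143 and 152. WT lay below both other groups, and the gene rose 1.48-fold in T133A (adjusted p = 0.000585) and 1.58-fold in KO (adjusted p = 1.52e-05). SLC7A2 (CAT2), the cationic carrier known for its induction in activated macrophages and liver, had 87.2 and 82.8 CPM in WT and 71.3 and 80.7 in T133A, against 24.9 and 26.3 in KO. It fell 3.32-fold in KO (adjusted p = 4.36e-11, log2 fold change -1.73, SE 0.117) and had a log2 fold change of -0.16 in T133A (SE 0.11, adjusted p = 0.413). Per length, SLC7A2 stood at 0.910 and 0.854 times SLC7A1 in WT, 0.488 and 0.581 times in T133A and, in KO, 0.169 and 0.168 times.

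The glutamine carriers moved in different directions. SLC1A5 (ASCT2; ENSG00000105281, chr19:46774883-46788594, minus strand), which trades glutamine for other small neutral amino acids, had 201 and 201 CPM in WT and 213 and 188 in T133A, against 274 and 298 in KO. It rose 1.42-fold in KO (adjusted p = 0.000305, log2 fold change 0.51, SE 0.102), where both libraries were above all others, and had a log2 fold change of -0.01 in T133A. With the GC and length correction the KO value was 0.29 and still passed the test. SLC1A4 (ASCT1), its close relative for serine and alanine, passed no test, at 29.6 to 37.4 CPM.

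SLC38A2 (SNAT2; ENSG00000134294, chr12:46358189-46372867, minus strand), the sodium-coupled carrier known to be induced by amino acid shortage, had 570.1 ± 30.1 CPM in WT, 484 and 557 in T133A and, in KO, 327 and 282. Both KO libraries were below all others. It fell 1.87-fold in KO (adjusted p = 5.22e-07, log2 fold change -0.91, SE 0.109). SLC38A1 (SNAT1), the second glutamine carrier of this family, stood at 285 and 267 CPM in WT and 230.5 and 281 in T133A, against 288 and 279 in KO, and passed no test (adjusted p = 0.594 in T133A and 0.784 in KO). With the GC and length correction its log2 fold change in KO went from 0.04 to 0.29 and passed the test (edgeR adjusted p = 0.0044). The value for T133A against KO went from -0.15 to -0.27 and passed as well (adjusted p = 0.00697), as it did without T133A replicate 2 (-0.30). Per length, SLC38A2 stood at 3.15 and 3.12 times SLC38A1 in WT, 3.18 and 3.01 times in T133A and, in KO, 1.72 and 1.53 times.

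Of the other SLC38 genes, SLC38A10 fell in KO by 0.26 on the log2 scale (162 ± 11.7 CPM against 194 ± 2.32, adjusted p = 0.0484), a call lost with the replicate number as a block, without a low-count filter, and without WT replicate 1, WT replicate 2 or KO replicate 1. SLC38A9, the lysosomal arginine sensor of the mTORC1 pathway, lay at 17.1 to 21.9 CPM, and SLC38A7 and SLC38A6 at 24.5 to 33.3 and 16.0 to 21.9 CPM. None of these 3 passed a test. SLC38A11, a carrier with few counts, had 22 and 25 counts in WT and 9 and 1 in T133A, against 0 and 2 in KO. WT exceeded KO 23.5-fold with a 95% counting interval of 6.16 to 199.8 (edgeR adjusted p = 0.000378). The fall in T133A (log2 fold change -2.18, SE 0.676, adjusted p = 0.0427) was lost with DESeq2, with library size scaling, with the replicate block and GC correction together, and without WT replicate 1, WT replicate 2, T133A replicate 2 (then -1.36) or KO replicate 2. Without T133A replicate 1 it was -4.34. Counting intervals and floors cover counting error only.

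Among the high-affinity glutamate carriers, SLC1A1 fell in KO and SLC1A3 rose from a very low level. SLC1A1 (EAAT3), the glutamate and cysteine carrier of epithelia and neurons, had 32.5 and 30.7 CPM in WT, 41.3 and 39.9 in T133A and, in KO, 10.8 and 9.69. The 3 groups did not overlap, and KO was 3.08-fold below WT (log2 fold change -1.63, SE 0.139, adjusted p = 2.41e-09). The T133A value of 0.36 (SE 0.126) missed the threshold (adjusted p = 0.0761), but passed it with the GC and length correction (0.37, adjusted p = 0.0144). Against KO, T133A was 3.97-fold higher (adjusted p = 7.49e-11).

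SLC1A3 (EAAT1), best known as a glial glutamate carrier, had 1 and 3 counts in WT and 3 and 5 in T133A, against 14 and 31 in KO. It rose in KO by 3.40 on the log2 scale (SE 0.741, adjusted p = 0.00069), with 4.28 without WT replicate 2 and 2.81 without KO replicate 2. At 1.26 ± 0.579 CPM in KO it stayed far below SLC1A1. The difference between T133A and KO (log2 fold change -2.41, adjusted p = 0.00515) was lost without T133A replicate 1 or KO replicate 2. SLC1A2 passed no test, at 12 to 35 counts per library.

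The SLC6 carriers of neutral amino acids held the largest fold changes. SLC6A14 (ATB0,+; ENSG00000268104, chrX:116436622-116461458, plus strand), a broad carrier of neutral and cationic amino acids in epithelia, had 7 and 16 counts in WT, 87 and 122 in T133A and, in KO, 0 and 0. The 3 groups did not overlap. T133A was 9.20-fold above WT (log2 fold change 3.20, SE 0.375, edgeR adjusted p = 3.23e-06), with 3.86 on the log2 scale without WT replicate 2. Set against 3 counts per library in KO, WT was at least 3.79-fold higher and T133A at least 35.4-fold higher than KO (adjusted p = 0.000247 and 2.12e-09). Its level in T133A was 6.09 ± 1.54 CPM.

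SLC6A20 (SIT1; ENSG00000163817, chr3:45755450-45796535, minus strand), the carrier of proline and other imino acids, had 5.90 and 6.80 CPM in WT and 8.28 and 7.82 in T133A, with 1 and 0 counts in KO. The KO libraries stood far below the others. WT exceeded KO 223-fold, with a 95% counting interval of 39.6 to 8851 that shows how little the single count fixes the ratio (edgeR adjusted p = 6.56e-11). The difference between T133A and WT missed the threshold (adjusted p = 0.366, log2 fold change 0.34, SE 0.214).

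SLC6A15 (B0AT2; ENSG00000072041, chr12:84859488-84913615, minus strand), a carrier of branched-chain amino acids and proline, stood at 16.3 and 14.0 CPM in WT and 30.2 and 34.2 in T133A, against 16.5 and 15.7 in KO. Both T133A libraries lay above the other 4, and KO and WT overlapped. The gene rose 2.12-fold in T133A (log2 fold change 1.09, SE 0.142, adjusted p = 1.12e-05) and had a log2 fold change of 0.09 in KO (SE 0.147, adjusted p = 0.66). With the GC and length correction the KO value was 0.38 and passed the test (edgeR adjusted p = 0.0139).

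SLC6A17, a vesicular neutral amino acid carrier of neurons, stood at 3.74 and 3.12 CPM in WT, 5.75 and 5.12 in T133A and, in KO, 11.8 and 9.58. The 3 groups did not overlap, and it rose 3.11-fold in KO (adjusted p = 1.54e-06, log2 fold change 1.64, SE 0.213). In T133A the log2 fold change was 0.66 (SE 0.225, adjusted p = 0.0669), which passed the test without T133A replicate 2 (0.75, adjusted p = 0.0472).

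SLC6A16 stood at 3.97 and 4.85 CPM in WT and 5.75 and 6.53 in T133A, against 2.73 and 2.85 in KO, in 3 groups without overlap. T133A was 2.19-fold above KO (log2 fold change 1.13, SE 0.237, adjusted p = 0.000551). The fall in KO against WT (-0.66, SE 0.244, adjusted p = 0.0307) was lost with DESeq2, without a low-count filter, and without WT replicate 1, WT replicate 2, KO replicate 1 or KO replicate 2. The glycine carrier SLC6A9 exceeded its KO level in T133A (log2 fold change 0.54, adjusted p = 0.0392), a call lost with library size scaling, with DESeq2, without T133A replicate 1 (0.28) and without KO replicate 2 (0.33).

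Smaller changes were seen among the carriers of related solutes. SLC6A6, the taurine carrier, had 199.5 and 201 CPM in WT, 262 and 238 in T133A and, in KO, 199 and 199.7. It rose 1.25-fold in T133A (adjusted p = 0.0422), a call lost with library size scaling, without a low-count filter, with the replicate block, and without WT replicate 1, WT replicate 2 or T133A replicate 1. SLC6A8, the creatine carrier, rose 1.33-fold in KO (22.2 ± 0.917 CPM against 16.6 ± 0.456, adjusted p = 0.0261). That call was lost with DESeq2, with the GC and length correction (log2 fold change 0.25), and without WT replicate 1, WT replicate 2, KO replicate 1 or KO replicate 2.

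The tested carriers of the SLC36 family, of which the proton-coupled SLC36A1 is best known for moving small amino acids out of lysosomes, parted in KO. SLC36A1 (PAT1) rose from 18.0 ± 0.599 to 25.5 ± 1.94 CPM (adjusted p = 0.00531, log2 fold change 0.51), a call lost without WT replicate 2 or KO replicate 2. SLC36A4 (PAT4) fell from 28.8 ± 0.211 to 21.7 ± 2.08 CPM (adjusted p = 0.0214, log2 fold change -0.42), a call lost without WT replicate 1, WT replicate 2 or KO replicate 2 as well as under the GC and length correction (-0.05). SLC36A4 also exceeded its KO level in T133A (0.50, adjusted p = 0.00791), a call lost without T133A replicate 2 (0.30) or KO replicate 2. SLC43A2 (LAT4), a facilitative carrier of branched-chain amino acids, phenylalanine and methionine, had 16.0 and 17.2 CPM in WT and 27.9 and 26.1 in T133A, against 20.3 and 22.1 in KO. It rose 1.63-fold in T133A (adjusted p = 0.00141). Its 1.28-fold rise in KO (adjusted p = 0.0414) was lost with library size scaling, DESeq2, no low-count filter, a minimum of 5 CPM or the replicate block and without WT replicate 1, WT replicate 2 or KO replicate 2, and its 1.27-fold excess in T133A over KO (adjusted p = 0.045) was lost with library size scaling, DESeq2, no low-count filter, only the compared groups or the replicate block and without WT replicate 1, WT replicate 2, T133A replicate 1, KO replicate 1 or KO replicate 2. SLC43A1 (LAT3) passed no test.

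8 lists of genes that work with these carriers were counted in the same way, and a list's count is to be read against the 23.6% of all genes that rose and the 23% that fell in KO. Amino acid carriers of other families had 8 of 16 tested members higher and 2 lower in KO. The 2 that fell were SLC25A29, a mitochondrial carrier of basic amino acids (75.6 ± 3.94 CPM in WT, 57.2 ± 9.41 in T133A, 25.4 ± 0.670 in KO), and SLC15A2, a peptide carrier (4.86 ± 0.404, 2.09 ± 0.198 and 0.381 ± 0.234 CPM). SLC25A22, a mitochondrial glutamate carrier, and SLC25A15, the ornithine carrier, rose 1.90-fold and 1.68-fold. The rises in this list numbered 3 without WT replicate 1 or WT replicate 2 and 4 without KO replicate 2.

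Genes of amino acid sensing and of mTORC1, the kinase complex that couples amino acid supply to growth, had 14 of 36 higher and 4 lower in KO. AKT1S1 (PRAS40) and MLST8, which belong to the complex itself, rose 1.71-fold and 1.61-fold. MTOR and RPTOR of the same complex, chosen after their values were seen, were not called in KO against WT. Their log2 fold changes were 0.10 and 0.26 (edgeR adjusted p = 0.475 and 0.0693). The sestrins SESN2 and SESN1, which bind leucine or respond to stress, rose 1.93-fold and 1.67-fold. The related SESN3, chosen after its values were seen, went the other way, with log2 fold changes of -0.81 in KO (adjusted p = 0.000366) and -0.997 in T133A (adjusted p = 0.000279). The falls numbered 2 without WT replicate 1, KO replicate 1 or KO replicate 2. In T133A against KO, where 19.6% of all genes were lower and 20.3% higher, 14 of the 36 were lower and 0 higher, which became 7 lower without KO replicate 2.

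Genes of cystine use and glutathione synthesis had 9 of 17 higher and 3 lower in KO. GCLM and GSS, which build glutathione, rose 1.60-fold and 1.46-fold. GCLC of the same synthesis, chosen after its values were seen, was not called in KO (log2 fold change 0.13, edgeR adjusted p = 0.285). CTH, which makes cysteine from cystathionine, fell 6.20-fold (21.2 ± 0.788 to 3.42 ± 0.194 CPM), and the glutathione peroxidase GPX2 fell 6.02-fold (580.1 ± 25.3 to 96.2 ± 34.3 CPM). Genes of glutamine, glutamate and asparagine metabolism had 7 of 16 higher and 2 lower. GLUL, which makes glutamine from glutamate, had 104 and 109 CPM in WT, 143 and 125 in T133A and, in KO, 12.3 and 11.4. It fell 8.98-fold in KO (adjusted p = 3.21e-15, log2 fold change -3.17, SE 0.125), while PSAT1 of serine synthesis rose 2.65-fold, GPT2, an alanine aminotransferase, 1.90-fold, and PYCR3 of proline synthesis 1.88-fold.

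Genes that break down branched-chain and aromatic amino acids had 5 of 16 higher and 5 lower in KO, and 3 lower without WT replicate 1 or KO replicate 1. HGD of tyrosine breakdown fell 11.8-fold (69.2 ± 0.526 to 5.81 ± 1.60 CPM) and FAH of the same pathway rose 2.38-fold. KYNU and IDO1 of tryptophan breakdown both rose in T133A and fell in KO, KYNU from 298 ± 9.67 CPM in WT to 420.5 and 432 in T133A and 191 ± 2.61 in KO, and IDO1 from 3.70 ± 0.361 to 9.53 ± 0.178 and 0.0607 ± 0.0858. Genes of arginine and polyamine metabolism had 7 of 17 higher and 5 lower in KO. SAT1, which acetylates polyamines, had 482 and 508 CPM in WT and 885 and 882 in T133A, against 177 and 148 in KO. It rose 1.79-fold in T133A (adjusted p = 7.35e-06) and fell 3.05-fold in KO (adjusted p = 4.58e-11). The nitric oxide synthases NOS1 and NOS2, which use arginine, were low but followed the same order, NOS1 with 7.06 ± 0.760, 12.2 ± 1.16 and 1.54 ± 0.716 CPM and NOS2 with 2.28 ± 0.00476, 7.79 ± 0.0408 and 0.893 ± 0.197 CPM. SRM, which makes spermidine, rose 1.91-fold in KO.

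Regulators of the amino acid response had 10 of 17 higher and 3 lower in KO, and 1 lower without WT replicate 1. ATF5 rose 1.75-fold, NUPR1 2.33-fold and MYC 1.44-fold, and BACH1, a repressor of antioxidant genes, fell 1.83-fold. MYC also rose 1.46-fold in T133A (128 ± 1.06 to 186 ± 14.7 CPM, adjusted p = 0.000897). Partners and turnover factors of the carriers had 2 of 11 higher and 3 lower in KO. LAPTM4B, which brings LAT1 with 4F2hc to lysosomes, had 370.3 ± 3.12 CPM in WT, 509 and 493 in T133A and 277 ± 9.36 in KO, a rise in T133A (adjusted p = 0.0045) and a fall in KO (adjusted p = 0.00124). The ubiquitin ligases NEDD4L and NEDD4, which take carriers from the membrane, parted in KO, the first 1.49-fold lower and the second 1.52-fold higher.

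In T133A against WT the lists held fewer calls, beside 5.58% of all genes higher and 3.97% lower. Arginine and polyamine metabolism had 6 of 17 higher and 0 lower, and 3 higher without WT replicate 2. Breakdown of branched-chain and aromatic amino acids had 4 of 16 higher and 1 lower, with 2 higher without WT replicate 2 and 0 lower without either WT replicate. The regulators had 3 of 17 higher, and 5 without T133A replicate 2. Carrier partners had 2 of 11 higher, LAPTM4B and the kinase SGK1, and 0 without WT replicate 1 or WT replicate 2. Each of the other 4 lists had at most 1 gene higher and 2 lower, and leaving out single libraries of WT, T133A or KO moved these counts between 0 and 3 higher and 0 and 4 lower.

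**Figure D4:**
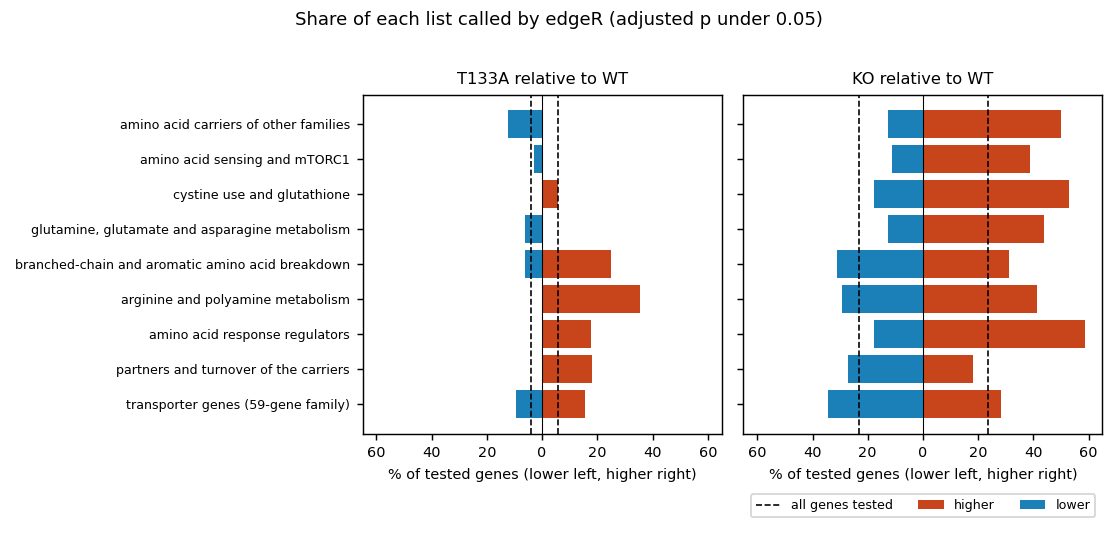
Share of tested genes called higher (orange, to the right) and lower (blue, to the left) in 8 related lists and in the carriers, in percent, for T133A (left panel) and KO (right panel) relative to WT. Dashed lines mark the shares over all genes tested, 5.58% and 3.97% in T133A and 23.6% and 23% in KO.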

How the data were processed

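RNA-seq counts of 6 A549 libraries in 3 groups were used. The counts deposited by the authors are whole numbers per gene without normalization, made with HISAT2 2.0.5, featureCounts 1.5.0 and the build GRCh38, per the submitters' processing notes. Which annotation release and strand setting were used is not given in the sources used here, and genes that overlap may share reads. Among the carriers, SLC6A9 (933 counts over all libraries) is overlapped on the opposite strand by CCDC24 (866). SLC38A6 (1892) is overlapped in the same way by TRMT5 (3060), and SLC38A11 (59) by AC019197.1 (21). Whether reads were shared was not tested. The FPKM values deposited by the authors were used only to check the library sizes, which were 0.967 to 1.03 times the total counts.

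The carriers, the lists and the tests were chosen with earlier results of these data known. Genes were filtered with filterByExpr and tested with edgeR 4.0.16 (R 4.3.3; TMM scaling, quasi-likelihood test, all 6 libraries, group as the only term, two-sided p, Benjamini-Hochberg adjustment over 16340 genes, threshold 0.05). The script was tested on simulated data. A count of 0 was read as up to 3 counts per library. Ratios resting on 1 to 3 counts carry exact 95% intervals. RPKM is CPM per 1000 bases of the deposited gene length.

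Carriers described in full had an adjusted p under 0.05 with a log2 fold change of at least 1 in size in any of the 3 comparisons, or were among the 6 highest by RPKM. Others are given by role group, with up to 4 examples. From each list up to 4 called genes with the smallest adjusted p are named. Untested carriers are named with their counts, except 1 that is not reported here.

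The alternatives changed the scaling (RLE size factors, or library size alone), the tool (DESeq2 1.42.0, or voom of limma 3.58.1), the filter (none, or at least 5 CPM on average) and the libraries fitted (those of the compared groups). Further ones added the replicate number as a block, a loess correction for GC content and length (span 0.5, GENCODE 29 transcripts, GC known for all 59 carriers), or left out each library in turn, where the lone library of a group is assumed to vary like the others. Promoters were matched by symbol for 44 of the 59 carriers. Python 3.11.15 read the files and matplotlib 3.10.9 drew the figures.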

Additional observations from a re-analysis of the deposited data

How the results depend on the processing

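Values compared between fits were all those of the carriers described in full and, for the other carriers, only those called in the main fit. Uncalled values of the other carriers were thus not checked for newly passing. Of these 958 recomputed log2 fold changes, 852 kept their direction and their side of the threshold. A further 75 no longer passed it, 11 newly passed it and 20 changed sign. The calls of SLC7A5, SLC3A2, SLC38A2, SLC7A1, SLC7A2, SLC1A1, SLC6A15 and SLC6A17, and of SLC7A7 in KO, were kept under each alternative. Those of SLC6A14 and SLC6A20 were kept wherever they were tested, which left out the minimum mean of 5 CPM and, for SLC6A14 in KO against WT, the fit of only the compared groups. The newly passed values were SLC1A1 in T133A, SLC6A15 in KO, and SLC38A1 in KO and in T133A against KO with the GC and length correction, alone and with the block, and, without T133A replicate 2, SLC38A1 and SLC38A11 in T133A against KO and SLC6A17 in T133A. The carriers that fell in T133A numbered 1 with the replicate block and the GC and length correction together, and 0 to 3 with single libraries left out. Those that fell in KO numbered 7 with a minimum mean of 5 CPM, where 24 carriers were tested, and 7 to 11 with single libraries left out.

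Deviations of same-numbered libraries correlated at -0.05, 0.02 and -0.12, so no shared shift was seen. The labels do not say whether replicate numbers pair the libraries, and such correlations cannot show that they do not. With the replicate block, 4 carriers rose and 3 fell in T133A, 8 and 10 in KO, and 11 were higher and 5 lower in T133A against KO.

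The sign changes were all of uncalled values near 0, and their cause was not tested. With library size scaling SLC3A2 was -0.044 in T133A against WT and SLC7A11 -0.011 in T133A against KO. With the GC and length correction, alone and with the block, T133A against WT gave -0.0329 and -0.0329 for SLC3A2, 0.0068 and 0.0070 for SLC38A2 and 0.012 and 0.011 for SLC38A1, and T133A against KO gave -0.12 and -0.12 for SLC7A11. With a minimum of 5 CPM SLC38A1 was -0.016 in KO. With single libraries left out, values ran from -0.034 to 0.11 for SLC3A2, -0.25 to 0.043 for SLC38A1, -0.000317 to 0.19 for SLC7A5 and -0.0823 to 0.087 for SLC1A5 in T133A against WT, from -0.0076 to 0.092 for SLC38A1 and -0.022 to 0.20 for SLC6A15 in KO against WT, and from -0.30 to 0.011 for SLC38A1 and -0.18 to 0.23 for SLC7A11 in T133A against KO.

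Scaling by library size alone moved the share of calls that were higher in T133A from 58.5% to 45.0%. Over all genes, 1560 calls in T133A became 2417 with the GC and length correction, 763 and 840 without WT replicate 1 and 2, and 2579 without T133A replicate 2.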
